A study of Fragaria x ananassa with 4 samples.

Results

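The genes described here are the MYB transcription factors of strawberry other than FaMYB10 and FaEOBII, the R2R3 factors whose role in ripe receptacle is best known, and they were followed in red and in green receptacle. Members were all genes whose description in the deposited RMA intensity matrix contains MYB, without gene31413 and Famyb10, the array entries for FaMYB10, and without gene28435, the entry for FaEOBII. Of 179 genes with such a description, 177 remained after 2 were left out by name, out of 35116 genes on the array. Each member had 1 probe. For 10 members the description also names another protein, such as an ATPase or a protease, so that the MYB name is uncertain for them.

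Receptacle is the fleshy tissue that carries the achenes, the true fruits of strawberry. Samples came from F. × ananassa, the octoploid cultivated strawberry, at the red ripe stage (R) and at the small green stage (G1), with 2 samples for each stage and no treatment in either. According to the methods, achenes were removed before RNA extraction and RNA came from independent pools, each of several fruits, of cv. Camarosa grown in the field, whereas the sample descriptions mention a growth chamber, a greenhouse and independent fruits. Which pools the 2 arrays of a stage hold is not given in the sources used here, so the spread behind the p-values may be partly technical.

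MYB proteins bind DNA through repeats of a helical domain, and the number of repeats divides them into families. Those with a pair of adjacent repeats, the R2R3 factors, regulate phenylpropanoid, flavonoid and wall metabolism, trichomes and anther development in many plants. The MYB-related proteins include clock factors such as LHY, regulators of flower asymmetry such as RADIALIS and DIVARICATA, and telomere-binding proteins. The related GARP domain is found in KANADI proteins, which set organ polarity, in MYB-CC proteins, which include regulators of phosphate starvation, and in type-B response regulators, which act at the end of the cytokinin pathway. In strawberry receptacle, MYB factors are known for the control of anthocyanin and of phenylpropanoid volatiles.

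Each sample was hybridised with Cy3 on a 1-colour Agilent array whose probes follow woodland strawberry gene models. Levels are given as log2 of the processed signal relative to the 75th percentile of the array, so that 0 is the signal at that percentile and 1 unit is a 2-fold difference, and levels of different probes are not comparable. A log2 fold change is red minus green, and a gene was called at an adjusted p under 0.05 by limma. For a gene that was not well above background in 1 stage, the fold is a bound and is written as at least. It is taken against the lowest signal well above background on the array. Some brighter signals were not well above background either, so this bound is approximate. That percentile corresponded to a signal of 671.1 and 509.3 in the red samples, against 390.4 and 347.4 in the green samples. Between 23658 and 24373 probes were well above background on an array. Red replicate 1 was on a slide of its own, while red replicate 2 shared its slide with both green samples. As a check of the labels, gene31413 (FaMYB10) had 5.09 and 5.05 in red receptacle, against -2.56 and -2.56 in green receptacle. Of 36 genes for chlorophyll a-b binding and photosystem proteins, all were lower in red receptacle. Of 16 genes named for seed storage and oil body proteins of the achene, 14 were well above background on every array. In red receptacle 9 were higher and 4 lower. The log2 of the summed signal of all 16 was 4.10 to 4.12 on the red arrays and 3.90 to 3.95 on the green arrays. The part of achene tissue in the values below was not tested. Fewer cells of a type and less transcript in each cell cannot be told apart in these samples.

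More MYB members were lower than higher in red receptacle with this scaling, and large decreases were more frequent among them than large increases. Of the 177 members, 122 passed the filter on dim probes and were tested. In red receptacle 44 were higher, 57 were lower and 21 did not pass the test, so that 82.8% of the members tested were called, against 72.8% of all genes tested. Among all 24975 genes tested, 37.8% were higher and 35.1% were lower, against 36.1% and 46.7% of the members tested. The shares differed most for large decreases. By the fitted fold change 30 members, or 24.6% of those tested, were at least 8-fold lower in red receptacle, against 7.23% of all genes tested. These included all 20 members tested that were not well above background in red receptacle. The bounds of those 20 began at 5.02-fold, so some are not shown to be 8-fold lower. By the same measure 7 members, or 5.74%, were at least 8-fold higher, against 3.52% of all genes. These included gene26513, whose bound was 5.96-fold. Increases under 2-fold made up 28 of the 44 higher members, while decreases under 2-fold made up 12 of the 57 lower members. Members that were seen in 1 stage only had to differ to pass the filter, and 20 of the members tested were well above background on both green arrays and on neither red array, while 7 were so on both red arrays and on neither green array. Among all genes tested, 4.51% and 4.24% did so. With the filter raised to all 4 arrays, 91 members were left, of which 38 were higher and 36 lower. The shares of all genes higher and lower under this raised filter are not given here. Of these 91 members, 10, or 11%, were at least 8-fold lower, against 4.37% of all genes. That gap was smaller than the one of 24.6% against 7.23% before the filter was raised. With the normexp background correction, which adds 50 to every signal and so draws dim values together, 4.92% of the members and 2.21% of all genes were at least 8-fold lower.

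**Figure D1:**
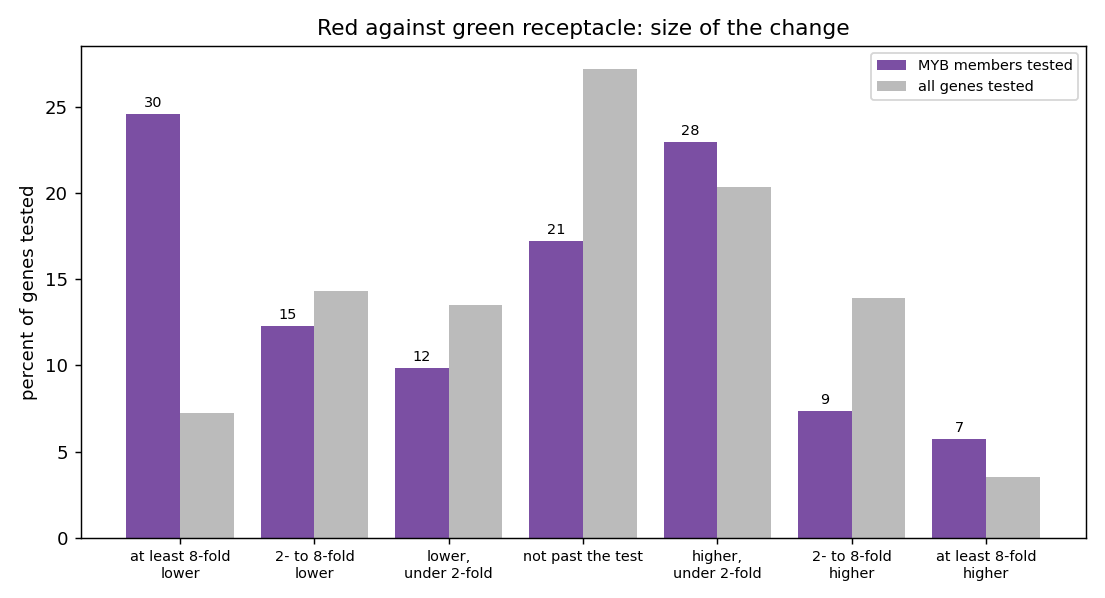
Percent of genes tested (y axis) in each size class of the change between red and green receptacle (x axis), for the 122 MYB members tested (purple, with their number above the bar) and for all 24975 genes tested (grey). The class of at least 8-fold lower in red holds 30 members, 24.6% of those tested, against 7.23% of all genes.

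The median log2 fold change of the members tested was -0.24, against 0.04 for all genes tested. In the deposited RMA matrix both were shifted upwards, to 0.23 for the members and 0.51 for all genes, so the sign of the member median depends on the scaling, while it lay below that of all genes under both. With RMA values 55 members were higher and 49 lower, and with normexp 33 were higher and 67 lower. Increases thus made up 52.9% of the calls with RMA, 43.6% here and a smaller share with normexp. The median of all genes moved with the scaling too, and was -0.21 with normexp. Shares of all genes higher and lower with RMA and normexp are not given here, so these counts show no excess among the members.

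Members were placed into 21 classes by keywords of their descriptions. In the 10 R2R3 classes, 65 members were tested, 17 were higher and 37 were lower in red receptacle, and the median log2 fold change was -1.23. Of these 65, 18 were not well above background in red receptacle and so had to differ to pass the filter, and with probes above background on all 4 arrays 39 were left, of which 12 were higher and 17 lower. In the other named classes, 41 members were tested, 19 were higher and 14 lower, with a median of 0.06, and 18 and 13 of 36 under that filter. The difference between both groups of classes was not tested. The classes with the lowest medians were the Myb4 or Zm1-like factors (-6.03), the RADIALIS-like factors (-4.20) and the Odorant 1-like factors (-3.83). Of their tested members, 6 of 11, 1 of 3 and 3 of 7 were not well above background in red receptacle. Those members had to differ to pass the filter, so the medians and counts of these classes partly follow from it. With RMA, quantile normalization and normexp the decreases were 8, 8 and 9 of 11 in the first of these classes, 3 of 3 in the second and 7 of 7 in the third. The same filtered genes were used with each of these scalings. The medians of the DIVARICATA-like, MYB-CC, TaMYB1 or c-Myb-like, Glabrous 1-like, Atmyb2 or MYB59-like, type-B and unnamed classes changed sign with at least 1 of these scalings, as did those of the GAMYB-binding, SHAQKYF, Triptychon and KANADI-like classes.

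**Figure D2:**
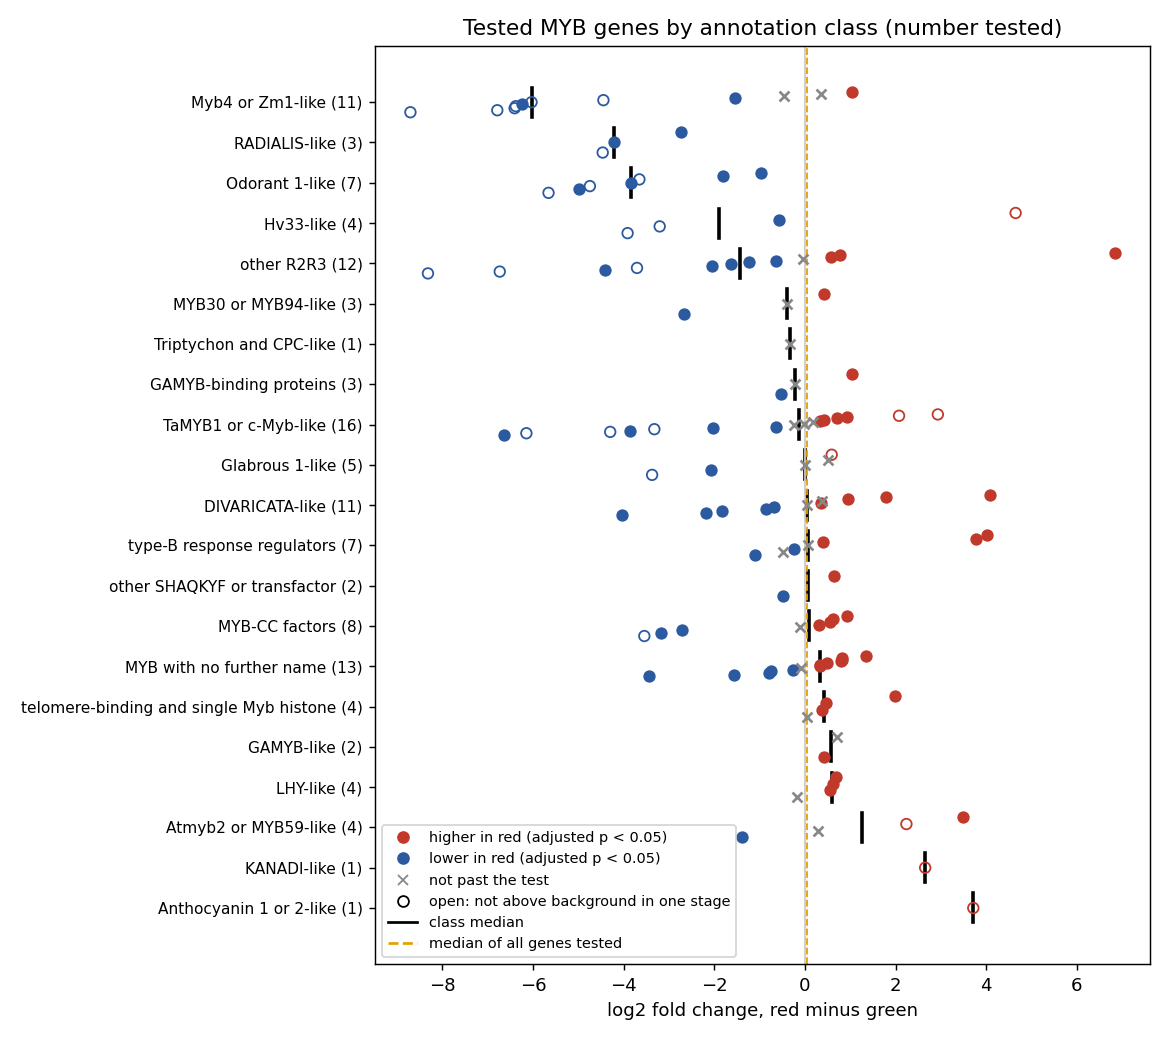
Log2 fold change, red minus green (x axis), of each of the 122 members tested, by class (y axis, number tested in brackets). Filled and open circles mark calls, crosses mark genes that did not pass, open circles mark genes not above background in 1 stage, and black bars mark class medians. The Myb4 or Zm1-like, RADIALIS-like and Odorant 1-like classes lie furthest to the left.

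The Myb4 or Zm1-like factors are R2R3 proteins named after related cereal proteins. Of 14 members, 11 were tested, 8 were lower, 1 was higher and 2 did not pass. In red receptacle 6 of those tested were not well above background. The gene18691 transcript had -7.23 and -6.59 in red receptacle, against 1.77 and 1.82 in green receptacle. In red receptacle its signal did not stand well above background, while in green receptacle it lay above the 75th percentile. With normexp its log2 fold change was -4.90. Against the lowest signal well above background it was at least 390-fold lower in red receptacle (fitted log2 fold change -8.71 ± 0.24 SE, adjusted p = 7.8e-05). As a bound this was the largest decrease among the members with this scaling, while with RMA that of gene25982 was larger (-11.03, against -9.33 for gene18691), and neither was well above background in red receptacle. A second member of the class, gene02324, had -7.92 and -7.63 in red receptacle, against -0.96 and -1.02 in green receptacle, and was at least 65.2-fold lower. For gene01998 the signal was above background on all 4 arrays, with -4.69 and -4.81 in red receptacle, against 1.47 and 1.54 in green receptacle. It was 76.1-fold lower (log2 fold change -6.25 ± 0.08 SE, adjusted p = 3.1e-05). The groups did not overlap for any of these genes. The only increase in the class was that of gene30736, singled out after its values were seen, with -1.71 and -1.96 in red receptacle, against -2.89 and -2.84 in green receptacle (2.05-fold).

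Several members with neighbouring model numbers are given here, chosen after their values were seen, and all but gene15390 were called lower in red receptacle. The gene15391 transcript, of the Myb4 or Zm1-like class, had -8.15 and -8.11 in red receptacle, against -1.63 and -1.82 in green receptacle, and was at least 39.1-fold lower. The gene15392 transcript had -7.95 and -7.46 in red receptacle, against -1.29 and -1.36 in green receptacle, and was at least 51.6-fold lower. Neither was well above background in red receptacle. In contrast, gene15390 had -0.19 and -0.06 in red receptacle, against 0.56 and 0.13 in green receptacle, and its difference did not pass (log2 fold change -0.47 ± 0.17 SE, adjusted p = 0.073). The nearby gene15386, an R2R3 factor outside the named classes, had -4.58 and -4.50 in red receptacle, against -0.05 and -0.22 in green receptacle, and was 21.2-fold lower (adjusted p = 4.9e-05). The nearby gene15389, a Glabrous 1-like factor, was at least 6.04-fold lower. Near-identical copies could share signal with a probe, and this was not tested.

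Odorant 1, known from petunia, is an R2R3 factor that turns on the supply of precursors for phenylpropanoid scent. Of 14 Odorant 1-like members, 7 were tested and all 7 were lower in red receptacle, where 3 of them were not well above background. The gene16287 transcript had -5.08 and -4.87 in red receptacle, against 0.07 and -0.04 in green receptacle. It was 31.9-fold lower with no overlap (log2 fold change -4.99 ± 0.11 SE, adjusted p = 4.9e-05). Next to gene01998 in number, gene01997 had -8.05 and -7.93 in red receptacle, against -2.33 and -2.34 in green receptacle. It was not well above background in red receptacle and was at least 25.7-fold lower. For gene07646 the values were -4.97 and -5.07 in red receptacle, against -1.24 and -1.15 in green receptacle, a 14.2-fold difference (adjusted p = 4.9e-05). The smallest decrease in the class was a log2 fold change of -0.97 for gene04423, chosen after its values were seen.

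The R2R3 factors outside the named classes spanned a wide range, from -8.32 to 6.85 on the log2 scale. Of 22 members, 12 were tested, 8 were lower and 3 were higher. The gene25060 transcript, whose closest description is Myb protein, had 1.61 and 1.59 in red receptacle, against -5.33 and -5.17 in green receptacle. It was above background on all arrays, without overlap, and was 115-fold higher (log2 fold change 6.85 ± 0.08 SE, adjusted p = 3.1e-05), the largest increase among members above background on all arrays. With RMA its log2 fold change was 7.67, against 8.17 for gene19715, which was not above background in green receptacle. At the other end, gene25982 had -8.23 and -8.16 in red receptacle, against 0.28 and -0.02 in green receptacle, and was at least 141-fold lower (adjusted p = 3.4e-05). The gene07416 transcript had -7.07 and -6.75 in red receptacle, against -0.10 and -0.26 in green receptacle, and its decrease was at least 6.71 on the log2 scale. Neither was well above background in red receptacle.

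**Figure D3:**
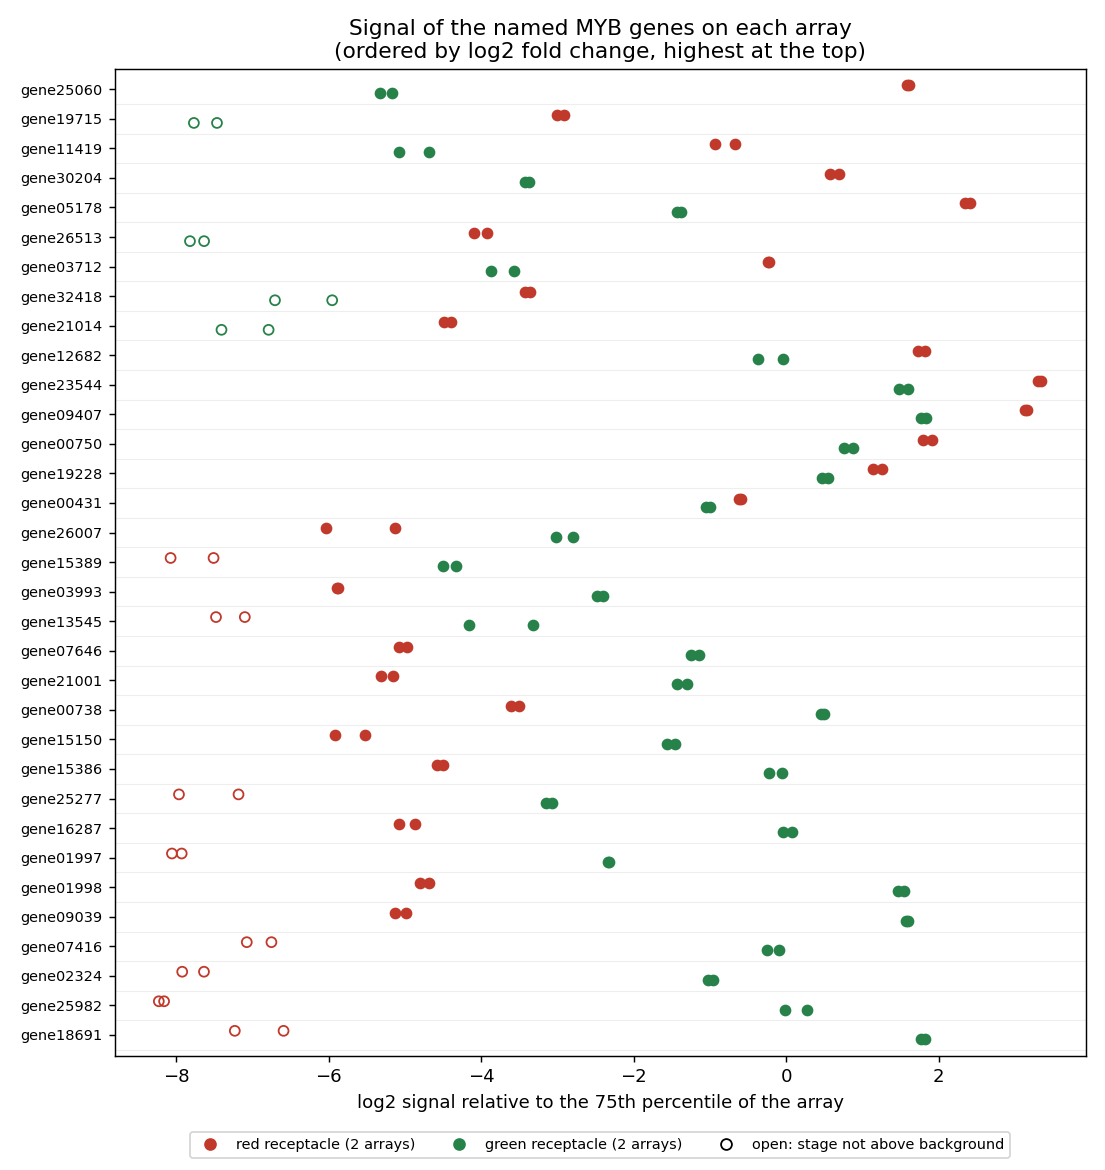
Level of the 33 members named by rule on each array (x axis, log2 signal relative to the 75th percentile of the array), with the 2 red arrays above the 2 green arrays for each gene (y axis, ordered by log2 fold change). Open circles mark a stage that was not above background; for gene25060 at the top both red arrays lie at 1.59 and 1.61, and for gene18691 at the bottom both lie under -6.

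The TaMYB1 or c-Myb-like factors were the largest named class, with 18 members. Of 16 tested, 6 were higher, 7 were lower and 3 did not pass, and their range ran from -6.64 to 2.93 on the log2 scale. Lowest of those above background on all 4 arrays was gene09039, with -5.13 and -4.99 in red receptacle, against 1.57 and 1.60 in green receptacle, a 99.9-fold difference (adjusted p = 3.1e-05). The gene04728 transcript, chosen after its values were seen, was not well above background in red receptacle and was at least 33.3-fold lower, and with RMA its log2 fold change was -8.76, against -6.41 for gene09039. The gene21001 transcript had -5.31 and -5.15 in red receptacle, against -1.43 and -1.30 in green receptacle, and was 14.6-fold lower. Upwards, gene32418 had -3.43 and -3.36 in red receptacle, against -6.70 and -5.95 in green receptacle, where it was not well above background. It was 7.64-fold higher, and the bound equals this measured fold because its green signals were not under the lowest signal well above background. That call was lost with normexp (log2 fold change 0.24, adjusted p = 0.11). The study's supplement describes gene00185 and gene01013 as MYB44-like, and both were chosen for that name. The gene00185 transcript was 2.04 and 2.14 in red receptacle, against 1.56 and 1.78 in green receptacle (log2 fold change 0.41, adjusted p = 0.028), and gene01013 was at least 3.61-fold higher.

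Among the R2R3 classes with few members, Anthocyanin 1 and 2 are named after regulators of anthocyanin. Only gene26513 of these 4 members was tested, with -4.09 and -3.92 in red receptacle, against -7.82 and -7.63 in green receptacle, where it was not above background. It was at least 5.96-fold higher (adjusted p = 8.8e-05), and this call too was lost with normexp (log2 fold change 0.11, adjusted p = 0.44). The 3 others were not above the filter. Of 10 Hv33-like members, 4 were tested, 1 was higher and 3 were lower. The higher one, gene19715, had -2.92 and -3.01 in red receptacle, against -7.77 and -7.46 in green receptacle, and was at least 12.3-fold higher (adjusted p = 8.0e-05). It was the only one of the 7 members not above background in green receptacle that kept its call with normexp, where its log2 fold change was 0.64. All 20 members that were not above background in red receptacle kept theirs. Both sets of members had passed the filter through the other stage only, and normexp used the same filtered genes. The kept calls are therefore no separate support for these differences.

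The Atmyb2 or MYB59-like class had 7 members, of which 4 were tested. The gene03712 transcript had -0.24 and -0.23 in red receptacle, against -3.57 and -3.86 in green receptacle, and was 11.2-fold higher (log2 fold change 3.48 ± 0.12 SE, adjusted p = 0.00013). Glabrous 1 is a regulator of trichomes in Arabidopsis. Of 6 Glabrous 1-like members 5 were tested, 1 was higher and 2 were lower. In Arabidopsis MYB30 acts in defence and in the synthesis of very-long-chain fatty acids. In that class gene26007 had -5.12 and -6.04 in red receptacle, above background on 1 of the arrays, against -2.80 and -3.02 in green receptacle, and was 6.37-fold lower (adjusted p = 0.0039). GAMYB factors act in the gibberellin response of cereal aleurone. The supplement gives gene00431 as GAMYB, and it averaged -0.61 ± 0.02 in red receptacle and -1.03 ± 0.04 in green receptacle (SD, n = 2 each), a 1.34-fold increase by limma (adjusted p = 0.0066). The other GAMYB-like member tested, gene03321, did not pass (adjusted p = 0.081). Of 4 members described as GAMYB-binding proteins, gene00750 had the largest change, with 1.79 and 1.92 in red receptacle, against 0.76 and 0.88 in green receptacle (2.05-fold higher, adjusted p = 0.0011). Its closest description is an aminophospholipid ATPase.

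Among the MYB-related proteins, RADIALIS and DIVARICATA act against each other in snapdragon flowers. Of 6 RADIALIS-like members, 3 were tested and all 3 were lower in red receptacle, where 1 of them was not well above background. The gene15150 transcript had -5.52 and -5.91 in red receptacle, against -1.46 and -1.57 in green receptacle, and was 18.4-fold lower (adjusted p = 0.00015). The gene25277 transcript had -7.96 and -7.18 in red receptacle, against -3.15 and -3.07 in green receptacle, and its decrease was at least 3.90 on the log2 scale. The DIVARICATA-like members were split, with 4 of 11 tested higher and 5 lower. Highest was gene11419, with -0.93 and -0.67 in red receptacle, against -4.68 and -5.08 in green receptacle (16.9-fold higher, adjusted p = 0.00023). The gene23544 transcript had 3.35 and 3.30 in red receptacle, against 1.48 and 1.60 in green receptacle (3.44-fold higher). Lowest was gene00738, given as MYB1R1 in the supplement, with -3.50 and -3.61 in red receptacle, against 0.49 and 0.45 in green receptacle (16.3-fold lower, adjusted p = 4.2e-05).

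LHY is a morning factor of the circadian clock in Arabidopsis. All 4 LHY-like members were tested, 3 were higher and 1 did not pass, and the called changes were under 2-fold. The gene19228 transcript had 1.26 and 1.14 in red receptacle, against 0.54 and 0.47 in green receptacle (1.61-fold higher, adjusted p = 0.0028), and its description also names a DegP2 protease. Telomere-binding and single Myb histone proteins had 3 of 4 members higher and none called lower, and 4 higher with RMA and 2 with normexp. Among them gene12682, a single Myb histone, had 1.82 and 1.73 in red receptacle, against -0.04 and -0.37 in green receptacle (3.94-fold higher, adjusted p = 0.00066). Triptychon and CPC, which hold back trichomes in Arabidopsis, were represented by gene35171 alone, chosen as the only member of its class, and its difference did not pass (log2 fold change -0.33, adjusted p = 0.092), though it was called lower with normexp.

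In the GARP group all 7 type-B response regulators were tested, 3 were higher and 2 were lower, against 4 and 1 with RMA and 2 and 3 with normexp. The largest changes were increases of gene30204 and gene05178. The gene30204 transcript had 0.57 and 0.69 in red receptacle, against -3.38 and -3.42 in green receptacle, and was 16.3-fold higher (log2 fold change 4.03 ± 0.08 SE, adjusted p = 4.4e-05). The gene05178 transcript had 2.41 and 2.35 in red receptacle, against -1.38 and -1.43 in green receptacle, and was 13.8-fold higher (log2 fold change 3.79 ± 0.07 SE, adjusted p = 4.2e-05). In the other 5 members the log2 fold change lay between -1.09 and 0.40. The MYB-CC factors went both ways, with 4 of 8 tested members higher, all by less than 2-fold, and 3 lower. The lowest was gene13545, with -7.10 and -7.48 in red receptacle, against -3.32 and -4.16 in green receptacle (at least 9.64-fold lower, adjusted p = 0.0016). Of the KANADI-like members only gene21014 was tested, with -4.49 and -4.39 in red receptacle, against -7.41 and -6.79 in green receptacle, where it was not above background. It was at least 4.41-fold higher (adjusted p = 0.0013), and with normexp the log2 fold change was -0.048 (adjusted p = 0.70). Of 4 other members of the SHAQKYF or transfactor kind, 2 were tested, of which 1 was higher and 1 was lower.

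Of 15 members described as MYB with no further name, 13 were tested, 7 were higher and 5 lower. The gene09407 transcript, described as Transcription factor MYB1, had 3.15 and 3.13 in red receptacle, against 1.83 and 1.76 in green receptacle (2.54-fold higher, adjusted p = 0.00029). The gene03993 transcript had -5.90 and -5.87 in red receptacle, against -2.40 and -2.49 in green receptacle (10.9-fold lower, adjusted p = 4.7e-05). Both were above background on all arrays and without overlap.

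The remaining 55 members were not tested. Of these, 46 were above background on no array and 9 on 1 array, which was a green array for 7 of them and a red array for 2. The highest level that any of them had on an array was -5.25. Their absence from the counts is a limit of the signal, and no change can be read for them. They included 10 of the other R2R3 factors, 7 of the Odorant 1-like and 6 of the Hv33-like factors.

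Anthocyanin and proanthocyanidin genes are controlled by complexes of a MYB factor with a bHLH and a WD40 protein. Of 4 partner genes found by keyword, 1 was higher and 2 were lower. The TTG1-like gene15643 had 4.20 and 4.28 in red receptacle, against 3.18 and 3.15 in green receptacle (log2 fold change 1.08, adjusted p = 0.00054). The second TTG1-like gene, gene12450, did not pass (log2 fold change -0.18, adjusted p = 0.10). The gene19321 transcript, described as bHLH33, had -4.01 and -4.12 in red receptacle, against -2.23 and -2.35 in green receptacle (log2 fold change -1.77, adjusted p = 0.00026), and gene19143, a putative anthocyanin regulator, fell by 1.24 on the log2 scale (adjusted p = 0.00084). Of 80 genes found by keyword for enzymes of the flavonoid pathway, 67 were tested, 22 were higher and 33 lower, and their median log2 fold change was -0.30. Many are putative matches, and the list mixes branches, so the median does not describe the anthocyanin branch. Chosen after their values were seen, gene14611 (flavanone 3-hydroxylase) had a log2 fold change of 1.19 and gene24665 (anthocyanidin reductase) of -7.00. A wall list of 76 genes was found by keyword, mostly laccases, with cinnamoyl-CoA reductases, caffeoyl-CoA O-methyltransferases, cellulose synthases and COBRA-like proteins. Of these, 57 were tested, 19 were higher and 33 lower, with a median of -1.48. The keywords do not separate the secondary from the primary wall. The background shares of 37.8% higher and 35.1% lower apply to these lists too. Genes of the flavonoid and wall lists that were seen in 1 stage only had to differ to pass the filter. Examples are gene12513 and gene07472, seen in green receptacle only, and gene10965, seen in red receptacle only. The medians and counts of these 2 lists therefore partly follow from the filter.

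**Figure D4:**
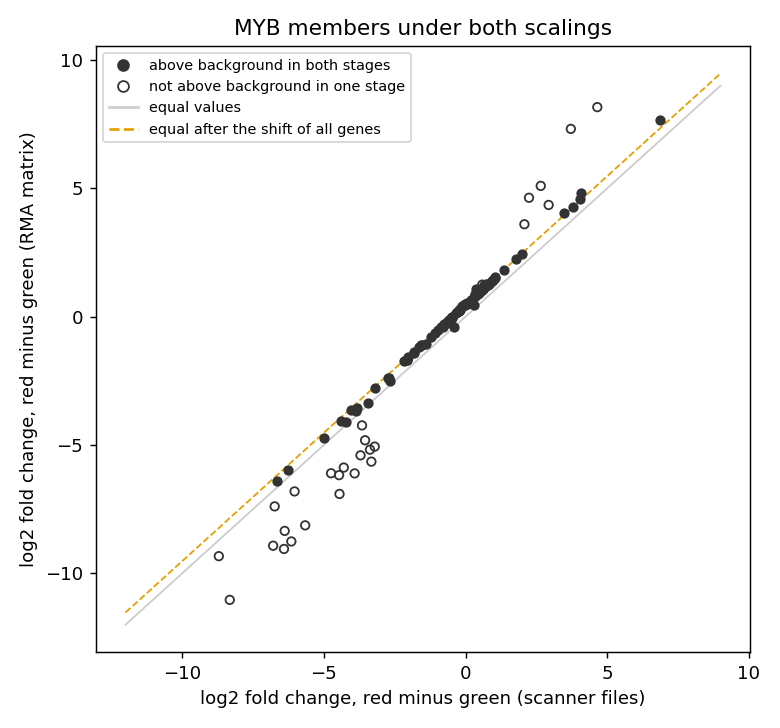
Log2 fold change, red minus green, of the 122 members tested in the deposited RMA matrix (y axis) against that from the scanner files (x axis). Members above background in both stages follow the dashed line, which is shifted by the difference between the medians of all genes (0.51 with RMA, 0.04 here), and open circles, not above background in 1 stage, lie further from 0 with RMA.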

How the data were processed

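The study hybridised RNA of 2 red and 2 green receptacle samples to 1-colour arrays. The deposited intensity of each spot is the processed signal of Agilent Feature Extraction 10.7.3.1, background-subtracted per the file headers and without normalization across arrays. A matrix of RMA intensities of these arrays was deposited by the authors too and served for the gene descriptions and as an alternative. Here log2 processed signals were expressed against the 75th percentile of the non-control spots of the array. From 84 to 255 spots per array, flagged by the software as non-uniform or outlying, were removed, and 0 spots were saturated. Replicate spots were averaged, and a probe was kept if at least 2 of 4 arrays showed it well above background. Red and green were compared over 24975 genes with limma 3.58.1 in R 4.3.3 (lmFit and eBayes, no trend, no block, two-sided, 2 residual degrees of freedom, 1.81 prior degrees of freedom), with Benjamini-Hochberg adjustment over all of them. The fit was tested on simulated data. The number of arrays limits the precision. Where a gene was not well above background on either array of a stage, the fold is a bound: the mean of the other stage against the mean over the dim arrays of the higher of its own value and the lowest value well above background on that array, which was -7.03 and -7.00 for red and -6.74 and -6.42 for green. Brighter signals could miss that mark too, as for gene28755 with -5.58 and -5.28 on the green arrays, so the bound is approximate.

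Genes were named by rule: the 8 strongest members in each direction by log2 fold change, among those past the test, above background on all arrays and without overlap, the 4 largest bounds in each direction, the member with the largest change in each class with at least 3 tested members, any member described as a Fragaria MYB (none was found), and gene00431. Members and lists were chosen with earlier results of these data known. Classes planned by Arabidopsis MYB number could not be used, because the descriptions list matches of many species in alphabetical order, so keywords of the descriptions were used instead. No genome or probe sequence was used here. Replicate numbers did not pair the samples.

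The alternatives were the RMA matrix, quantile normalization, normexp with an offset of 50 on the median spot signal, other filters, the median over probes, intensity and robust trends, the methods' t-test, other thresholds, blocks for the replicate number or the slide, and omission of each sample. Centring each array on its median and the count of 8-fold decreases under these alternatives were added after seeing the data.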

Additional observations from a re-analysis of the deposited data

How the results depend on the processing

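Of 482 values of the 33 named members under the alternatives, 479 kept their direction and their side of the threshold. The exceptions came with normexp, where gene21014 turned to -0.048 and the calls of gene32418 and gene26513 were lost. Not all of these alternatives were separate checks. The median over probes could not move a fold change, because each member had 1 probe. The slide block repeated the fit without red replicate 1. The call of gene20254, not named by rule, turned from 0.33 (adjusted p = 0.028) to -0.32 (adjusted p = 0.034) with normexp. The median log2 fold change of the members was 0.23 with RMA, -0.036 with quantile normalization, -0.41 with normexp, -0.38 without a filter and -0.0034 with probes above background on all 4 arrays. With arrays centred on their medians it was -0.0084 with RMA, -0.035 with quantile normalization and -0.013 with the 75th percentile. Under each of these it lay 0.06 to 0.28 below the median of all genes. By the fitted fold change, members at least 8-fold lower in red numbered 30, and 6 with normexp and 10 with probes above background on all 4 arrays. Members lower in red numbered 36 under that filter. At the threshold of the methods (a log2 fold change above 2 and an unadjusted p of 0.05 or less) 11 members were higher and 37 lower, and with the methods' t-test 10 and 37. The share of all genes at this threshold was not computed, so no excess can be read from these counts or from those of the lists below. With an adjusted p under 0.05, 16 members (13.1% of those tested) were at least 2-fold higher, against 17.4% of all genes. At least 2-fold lower were 45 members (36.9%), against 21.5% of all genes. Leaving out 1 sample gave 36 to 39 members higher and 53 to 56 lower, a median of -0.23 to -0.27, and 30 members at least 8-fold lower each time, where the lone sample is assumed to vary like the other stage. With the slide as a block the median was -0.23, the same fit as without red replicate 1, which was alone on its slide. A slide effect could therefore not be adjusted for apart from that sample. Of partner genes 2 were higher with RMA, and 0 were higher or lower at the threshold of the methods, with limma or the t-test. Flavonoid genes numbered 8 higher and 16 lower at that threshold with either test. Genes of the wall list higher in red numbered 5 at that threshold and 10 at 2-fold, and 18 were lower with probes above background on all 4 arrays. The replicate numbers gave no sign of pairing (correlation of deviations 0.078), and with the replicate block 45 members were higher and 56 lower. Signal over background limits the 55 members not tested and every bound, and the cause of the other differences was not tested.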
